A study of Homo sapiens with 2 samples.

Results

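The peaks described here lie just inside genes, beyond the promoter. They are the MYBL2 ChIP-seq peaks whose summit, the base of highest signal, was 1001 to 5000 bp downstream of the 5′ end of the canonical transcript of a protein-coding gene, within the body of that gene, and more than 1000 bp from every protein-coding or lncRNA transcription start site (TSS). The rule uses position alone and no peak strength. Of 66954 deposited peaks, 4146 met it (6.19%). They fell in 2715 of the 18543 genes that had at least 1 allowed base in the window, and 66 of them lay in the window of more than 1 gene. For comparison, 2147 peaks met the same rule in the mirror window, 1001 to 5000 bp upstream of the same 5′ ends, of which 486 were also downstream peaks of another gene and 1661 were upstream only.

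The study profiled A673 cells, an established line of Ewing sarcoma, a bone and soft-tissue tumor driven by the EWSR1-FLI1 fusion. The cells were labelled WT, received no stated treatment and gave 1 MYBL2 ChIP library and 1 library of input chromatin, the sheared DNA before precipitation. The labels give the rabbit monoclonal antibody as one against MYBL2, and the methods of the study as one for its activated form. With 1 library of 1 cell line in each group there was no biological replicate, so that all values and tests below describe this library, and genes or peaks in a test are not replicates of a condition.

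MYBL2 (B-MYB) is a transcription factor of the MYB family that is made in proliferating cells. It joins the MuvB core proteins, and with them activates genes of the late cell cycle, mostly from sites close to their promoters. MYB proteins recognise short words that contain an AAC core, while MuvB binds the cell cycle genes homology region (CHR). The first kilobases of a gene body, mostly first intron, are a common place for enhancers and for open chromatin that extends from an active promoter.

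The following windows reach 50 bp to either side of the summit (101 bp, GRCh37 reference, written 5′ to 3′ on the strand of the gene). They were chosen as the strongest intronic summit with a MYB word among the leading peaks (GTF2A1), strong summits with none of the words searched (EMILIN1, ELOVL6), summits of cell cycle or chromatin genes (RRM2, ARID1A), and that of MYBL2 itself. Capitals mark every word of the 12 motifs defined further on, on either strand, and a word marks letters only, not a bound site.
GTF2A1 (chr14:81685838-81685938, minus strand): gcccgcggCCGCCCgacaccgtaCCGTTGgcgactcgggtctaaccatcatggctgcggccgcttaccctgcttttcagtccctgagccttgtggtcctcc
EMILIN1 (chr2:27304203-27304303, plus strand): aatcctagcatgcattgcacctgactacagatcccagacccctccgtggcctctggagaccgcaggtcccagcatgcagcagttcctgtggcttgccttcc
ELOVL6 (chr4:111115272-111115372, minus strand): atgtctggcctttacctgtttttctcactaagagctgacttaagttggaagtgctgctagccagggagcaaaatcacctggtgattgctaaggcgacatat
RRM2 (chr2:10265171-10265271, plus strand): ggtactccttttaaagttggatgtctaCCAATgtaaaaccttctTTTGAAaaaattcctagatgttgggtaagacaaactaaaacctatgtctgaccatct
ARID1A (chr1:27024662-27024762, plus strand): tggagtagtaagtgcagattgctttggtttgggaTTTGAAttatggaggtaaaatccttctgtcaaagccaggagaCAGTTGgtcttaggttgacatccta
MYBL2 (chr20:42299323-42299423, plus strand): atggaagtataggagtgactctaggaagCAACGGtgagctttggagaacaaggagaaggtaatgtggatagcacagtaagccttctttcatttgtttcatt
The windows differed in base composition. The GTF2A1 window had 66.3% G or C and the RRM2 window 34.7%. In the MYBL2 window the capitals spell the MYB word CAACGG, in ARID1A a CHR and the reverse complement of another MYB word, and in RRM2 a CCAAT box and a CHR.

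Downstream peaks were mostly weak. The authors' fold enrichment, a linear ratio, divides the pile of fragments at the summit by the background estimated around it. The same small constant is added to both before the division. The median was 3.53 (interquartile range 3.04 to 4.20, maximum 41.9). Only 451 of the 4146 peaks had a fold enrichment of at least 5 (10.9%, exact 95% binomial interval 9.95 to 11.9%) and 45 reached 10 (1.09%, interval 0.793 to 1.45%). Solved back from the deposited columns as a whole number, the pileup ran from 11 to 201 fragments with a median of 18. For 18 fragments the exact 95% Poisson interval is 10.7 to 28.4, so that a difference of a few fragments between weak peaks lies within counting error. These intervals cover counting error only, as reads without molecular identifiers are not independent molecules.

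In strength the downstream peaks resembled the remaining peaks away from promoters more than promoter peaks. Peaks with the summit within 1000 bp of a TSS (promoter peaks, 21366) had a median fold enrichment of 4.92 and 48.5% of them reached 5. The 39781 peaks outside promoters and outside both windows had a median of 3.56, and 12.5% of them reached 5. Upstream peaks had a median of 3.60, and 14.1% reached 5 (interval 12.7 to 15.7%). The base composition did not follow strength in every class. The median GC content of the 301 bp around the summit was 41.9% for downstream peaks, 45.8% for upstream peaks, 60.5% for promoter peaks and 40.9% for the remaining peaks. A CpG-rich summit had more than 50% GC and a CpG observed to expected ratio above 0.6. It was found in 4.51% of downstream peaks (interval 3.90 to 5.19%), in 6.80% of upstream, 53.7% of promoter and 2.099% of the remaining peaks.

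The local background was slightly higher downstream. Its median was 4.28 fragments for downstream and 3.98 for upstream peaks, and 19.4% of downstream peaks stood at the lowest background in the list (3.45 fragments) against 24.9% of upstream peaks. The part of the background in the results below was not tested.

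To ask whether MYBL2 peaks near 5′ ends favour the inside of the gene, the density of peaks was compared between the downstream window and its mirror. Only distances at which the base on either side was allowed were used. In these bases there were 3440 downstream peaks in 47.6 Mb (72.3 per Mb) and 1358 upstream peaks in 47.1 Mb (28.8 per Mb). The downstream density was 2.51 times the upstream one (exact 95% interval 2.35 to 2.67). Counted by gene, 2045 genes had a peak only downstream and 754 only upstream, while 273 had both and 14933 neither (two-sided exact McNemar test, p = 2.53e-136). The ratio was above 1 with its whole interval in 23 of 23 chromosomes. It was lowest on chromosome 19 (1.54) and highest on chromosome 18 (5.63).

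Upstream windows often cover a neighbouring gene, and leaving those bases out changed the ratio more than any of the other 7 alternatives tried. Upstream bases inside the body of a protein-coding or lncRNA gene held 1379 upstream peaks at 47.0 per Mb, and those outside every gene body held 768 at 22.4 per Mb. When only upstream bases outside gene bodies were kept, the downstream density was 3.71 times the upstream one (interval 3.36 to 4.10).

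The excess of downstream peaks was seen where the promoter also carried a peak. At genes with a promoter peak the densities were 115 downstream and 43.0 upstream peaks per Mb, a ratio of 2.68 (interval 2.51 to 2.87). At genes without one they were 10.9 and 8.62 per Mb, a ratio of 1.27 (interval 1.03 to 1.56), with 159 genes that had a peak only downstream and 120 only upstream (exact McNemar test, p = 0.0227). The small excess at the latter genes changed with how a promoter peak was counted. With any peak whose interval reached within 1000 bp of a TSS taken as a promoter peak, the ratio without one was 1.09 (interval 0.861 to 1.37, 127 against 107 genes, exact McNemar test, p = 0.214). By this count a downstream or upstream peak that itself reached so far took its gene out of the group. The group's downstream peaks fell from 215 to 157 and its upstream peaks from 169 to 144. The lower ratio was therefore partly built into the count. The difference between genes with and without a promoter peak was not itself tested.

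Weak peaks showed the largest ratio, as the plot of the ratio by group shows. It was 2.98 (interval 2.58 to 3.46) for fold enrichments under 3, 2.62 for 3 to 4, 2.18 for 4 to 5, 2.07 for 5 to 10, and 1.68 (interval 0.941 to 3.08) for 10 or more, where there were 34 downstream and 20 upstream peaks. The intervals of the first and the last class overlapped and the trend was not tested.

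**Figure D1:**
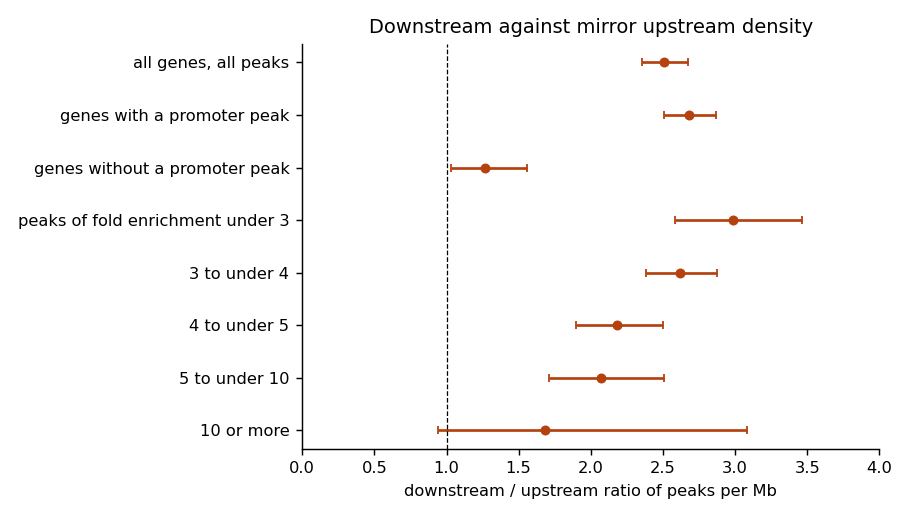
Ratio of peaks per Mb in the downstream window to that in the mirror upstream window (x axis), for all genes, for genes with and without a promoter peak, and by the fold enrichment of the peak. Points are ratios and bars exact 95% intervals. The ratio is 2.51 for all genes, 1.27 at genes without a promoter peak, and falls from 2.98 in the weakest to 1.68 in the strongest class.

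The test found no difference in strength between downstream and upstream peaks of the same gene. Among the 273 genes with a peak on either side, the strongest downstream peak was higher in 130 and the strongest upstream peak in 141, with 2 ties (two-sided exact sign test, p = 0.544). The medians were 3.80 downstream and 3.83 upstream. Taking the strongest peak favours the side with more peaks, so the comparison was repeated, after the data were seen, in the 127 genes with exactly 1 peak on either side. There the downstream peak was higher in 68 and the upstream one in 57 (exact sign test, p = 0.371).

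Downstream peaks became sparser with distance. They fell from 95.8 per Mb of allowed bases at 1001 to 1500 bp (514 peaks, interval 87.7 to 104.5) to 64.7 per Mb at 4501 to 5000 bp (448 peaks, interval 58.9 to 71.0). The density in the first 1000 bp of the window was 1.32 times that in the last 1000 bp (interval 1.20 to 1.44). Upstream it was 1.58 times (interval 1.40 to 1.79), falling from 45.6 to 27.0 per Mb. The strength did not fall along with the density, as the median fold enrichment lay between 3.39 and 3.59 in all 8 bins of 500 bp downstream. At the edges of the window, the 69 downstream peaks at 1001 to 1100 bp had a median fold enrichment of 3.52 and the 267 peaks at 901 to 1000 bp, just outside, 3.71. The 79 peaks at 4901 to 5000 bp had a median of 3.54 and the 90 at 5001 to 5100 bp one of 3.45.

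Beyond the window the downstream side stayed higher at genes with a promoter peak. There, with each peak counted once for each gene, the density was 146 per Mb at 1001 to 2000 bp, 105 at 4001 to 5000 bp, 83.4 at 9001 to 10000 bp and 71.0 at 19001 to 20000 bp (interval 64.5 to 78.0). Upstream of the same genes it was 68.9, 41.6, 39.3 and 36.0 per Mb at the same distances. The upstream side thus reached its later level within about the window, while the downstream side was still above it at the far end. At genes without a promoter peak no distance on either side exceeded 15.1 per Mb, and the order turned. The downstream density was above the upstream one at 1001 to 2000 bp (14.6 against 10.7 per Mb) and below it at 9001 to 10000 bp (5.47 against 10.6) and at 19001 to 20000 bp (8.19 against 13.7), as in every 1 kb bin beyond the window.

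**Figure D2:**
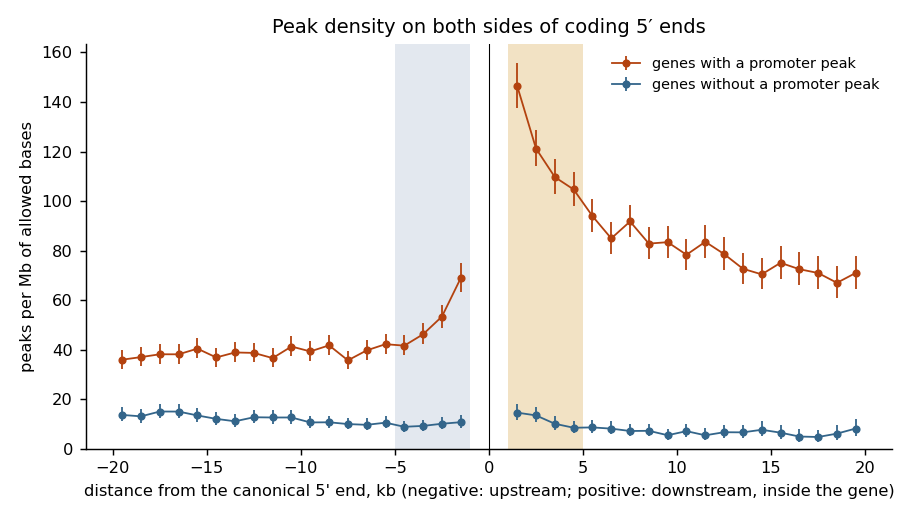
Peaks per Mb of allowed bases (y axis) in 1 kb bins against the distance from the canonical 5′ end in kb (x axis), for genes with and without a promoter peak. Points are densities, bars exact 95% Poisson intervals, and shaded bands the downstream and the mirror windows. At genes with a promoter peak the first downstream bin holds 146 peaks per Mb and the first upstream bin 68.9.

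Nearly all genes with a downstream peak also had a promoter peak. This was so for 2506 of 2715 genes (92.3%, exact 95% interval 91.2 to 93.3%), against 60.3% of all 18543 genes with an allowed window and 86.4% of the 1453 of these with an upstream peak. Read the other way, 14.6% of all genes with an allowed window had a downstream peak, as did 22.4% of the 11185 with a promoter peak and 2.84% of the 7358 without one. The share rose with the strength of the promoter peak. It was 12.6% for promoter peaks of fold enrichment under 5, 19.9% for 5 to 10, 29.9% for 10 to 20 and 29.8% for 20 or more.

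The strength of the downstream peak, by contrast, had almost no relation to that of the promoter peak. Across the 2506 genes with both, Spearman's rho was 0.0078 and Pearson's r of the log2 values was -0.0064. These are given as a description, as the genes share the library and its background. The downstream peak was the stronger of the 2 in 146 genes (5.83%), and the medians were 3.68 for downstream and 10.0 for promoter peaks. The plot of both peaks by gene shows a broad cloud below the line of equal strength, with TMEM107 and EMILIN1 above it.

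**Figure D3:**
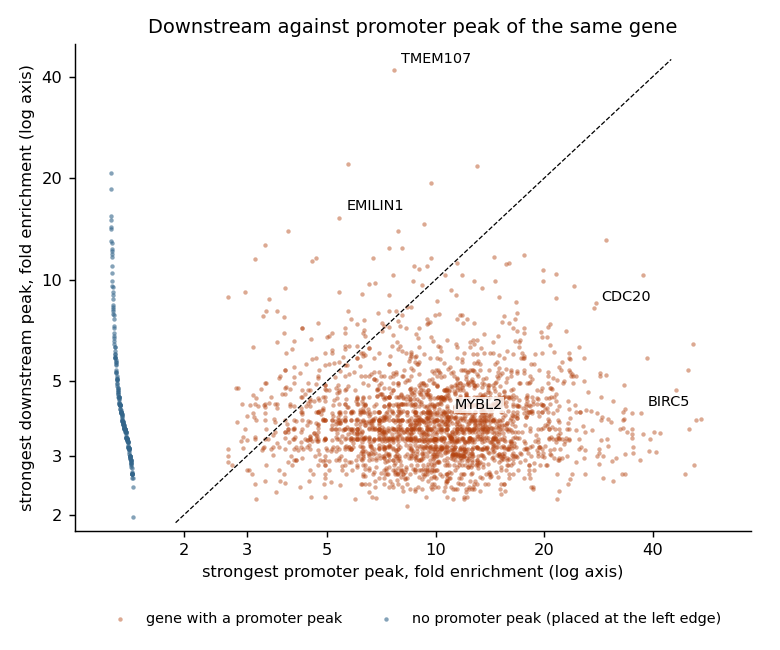
Fold enrichment of the strongest downstream peak (y axis, log scale) against that of the strongest promoter peak (x axis, log scale), 1 point per gene. The dashed line marks equal strength and genes without a promoter peak are placed at the left edge. Of 2506 genes with both, 146 lie above the line.

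Most downstream peaks had a promoter peak within 20000 bp. The rule sets the summits 1001 to 5000 bp from a 5′ end, so the gaps below follow in part from the rule. No gaps of upstream peaks are given for comparison. The median gap from the edge of a downstream peak to the nearest promoter peak, where one was within 20000 bp, was 1398 bp. The gap was at most 500 bp for 21.2% and at most 1000 bp for 36.8%, and 202 downstream peaks (4.87%) had no promoter peak within 20000 bp. In 511 cases (12.3%, interval 11.3 to 13.4%) the peak itself extended to within 1000 bp of a TSS although its summit did not. These 511 were wider (median 529 bp against 272 bp) and stronger (median fold enrichment 4.02 against 3.48) than the other downstream peaks, and they included 27 of the 45 peaks of fold enrichment 10 or more.

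Genes often carried more than 1 downstream peak. Of the 2715 genes, 1752 had 1 peak, 580 had 2, 263 had 3, 92 had 4, 25 had 5 and 3 had 6. Neighbouring summits of a gene were a median of 864 bp apart (interquartile range 583 to 1337 bp, minimum 211 bp). Gene length, which sets how much of the window lies inside the gene, was related to the density but little to the share of genes. At genes with a promoter peak, 24.9% of those under 5 kb long and 21.5% of those over 100 kb had a downstream peak. Per allowed base the short genes held 237 peaks per Mb (interval 213 to 264) and the long ones 97.1 per Mb (interval 89.7 to 105).

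Within the transcript, downstream summits mostly followed the available bases, but not in every feature. First introns held 2734 of them (65.9%, interval 64.5 to 67.4%) and 64.0% of allowed bases. Later introns held fewer summits than their bases, at 23.5% (interval 22.2 to 24.8%) against 27.5%. So did coding exon parts, at 3.91% (interval 3.34 to 4.54%) against 4.79%. Only 11 summits lay in the 5′ untranslated region (5′ UTR). The widest departure was in the 3′ UTR, with 265 summits (6.39%, interval 5.67 to 7.18%) in 3.52% of the allowed bases, or 136 peaks per Mb against 77.5 in first introns. Likewise 242 summits (5.84%) lay within 1000 bp of the 3′ end of the transcript, which held 3.65% of allowed bases. Features were not split by gene length, and its part in the 3′ UTR share was not tested.

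Strong and weak downstream peaks differed in these features. From fold enrichments under 3 to those of 10 or more, the median width rose from 251 to 1993 bp, the median GC content around the summit from 39.5 to 52.2%, and the share of CpG-rich summits from 1.14% (10 of 877) to 20.0% (9 of 45, interval 9.58 to 34.6%). The share in a 3′ UTR rose from 3.99 to 22.2%, and the share at genes without a promoter peak from 4.56 to 31.1%. Peaks whose interval reached within 1000 bp of a TSS also became more common, from 66 of 877 to 27 of 45 (interval 44.3 to 74.3%). Promoter peaks were counted by their summit, so a gene could lack one although a peak reached its promoter. The part of peaks that reached a TSS window in the other rises was not tested. The share in a first intron was 70.1% in the weakest and 51.1% in the strongest class. These are descriptions, and fold enrichment and width come from the same signal.

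The strongest downstream peak lay in the 3′ UTR of TMEM107, a gene for a protein of the ciliary transition zone, on chromosome 17 (hg19, 8076142 to 8077321). Its fold enrichment was 41.9, its pileup counted 201 fragments (exact Poisson interval 174 to 231), and it ranked 38th among all peaks. SNORD118, the gene of the U8 small nucleolar RNA, is annotated on the same strand inside that UTR, and its start was 174 bp from the summit. The promoter peak of TMEM107 was much lower, with a fold enrichment of 7.66.

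The next 9 peaks had fold enrichments of 14.7 to 22.02. EVX2, a homeobox gene of the HOXD cluster end, had a peak of 22.02 in intron 2 that was 2438 bp wide and reached a promoter window. GTF2A1, which encodes a subunit of the general factor TFIIA, had a peak of 21.8 in intron 1, 1415 bp from the 5′ end, beside a promoter peak of 13.03. POLR3E, a subunit gene of RNA polymerase III, had a peak of 20.7 whose interval (chromosome 16, 22308374 to 22310193) spanned the 5′ end itself, with the summit 1116 bp inside. All of these reached a promoter window. SH2B3, an adaptor of cytokine signalling, had the widest peak of the group, 9738 bp, with a fold enrichment of 19.3. LHX8 (18.6) and SOX21 (15.4), both developmental transcription factor genes, had broad peaks of 1571 and 2544 bp and no promoter peak of their own.

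EMILIN1, an extracellular matrix glycoprotein gene, had the sharpest of the leading peaks. It was 415 bp wide (chromosome 2, 27304050 to 27304464), lay in intron 3, and piled up 68 fragments (interval 52.8 to 86.2), for a fold enrichment of 15.3 against 5.39 at the promoter. ELOVL6, a fatty acid elongase gene, had a peak of 15.0 in intron 1 (chromosome 4, 111114719 to 111116280) at 4449 bp, and no promoter peak. SURF1, needed to assemble cytochrome c oxidase, had one of 14.7 in intron 8 that was 3811 bp wide and lay in a cluster of closely packed genes. Both EMILIN1 and ELOVL6 were clear of every promoter window, unlike 7 of these 10 peaks.

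Among genes without a promoter peak the strongest were POLR3E, LHX8, SOX21 and ELOVL6, followed by PRDM6 (14.3, intron 2), a gene of vascular smooth muscle. Apart from that of ELOVL6, these peaks themselves reached within 1000 bp of a TSS, not necessarily one of the same gene. Those of POLR3E and LHX8 came within 1000 bp of the canonical 5′ end of their own gene. These genes thus lacked a promoter peak only by the position of the summit. The peaks of SOX21 and PRDM6 did not come within 1000 bp of the canonical 5′ end of their gene. Several other developmental regulators were among the 45 peaks of fold enrichment 10 or more, a group noticed after their values were seen: VAX1 (13.03), FOXC1 (11.9), EMX1 (11.5) and ZIC5 (11.01). No test was made on them.

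The genes with the most downstream peaks carried many weak ones rather than a strong one. ELK3, a gene of the ternary complex factor group of ETS factors, had 6 peaks in intron 1, with fold enrichments of 7.05, 4.84, 4.19, 3.71, 3.55 and 3.22. TSPAN13, a tetraspanin gene, had 6 in intron 1 between 2.48 and 4.57. FNBP4, whose protein binds formins, had 6 in intron 2 between 2.32 and 4.24, beside a promoter peak of 18.2. USP22, a deubiquitinase of the SAGA complex, had 5 between 3.31 and 5.33.

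Small nuclear and nucleolar RNA genes, whose starts the rule did not use, lay within 1000 bp of 29 downstream summits (0.699%, interval 0.469 to 1.00%). Among upstream peaks the share was 0.559% and among all peaks 0.535%, so the downstream share was near the background. Hosts of such RNAs among the 29 included RPS3A (fold enrichment 6.74, beside SNORD73A) and RPL27A (5.28, SNORA45).

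Gene groups tied to proliferation held downstream peaks at a higher share than all genes. Of 52 G2/M genes, which drive mitosis, 27 had at least 1 (51.9%, exact 95% interval 37.6 to 66.0%), and of 51 G1/S genes with an allowed window, which drive DNA synthesis, 25 did (49.0%, interval 34.8 to 63.4%). The background was 14.6% of all genes and, since all 52 G2/M and 50 of the 51 G1/S genes had a promoter peak, 22.4% of genes with such a peak. The peaks were not strong. The median of the strongest downstream peak of each gene was 4.06 for G2/M and 3.80 for G1/S genes, against 3.70 for all genes with one. A fold enrichment of 5 was reached at 5 G2/M and 3 G1/S genes, next to 2.24% of all genes and 3.18% of genes with a promoter peak.

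Among the G2/M genes CDC20, an activator of the anaphase-promoting complex, had the highest, at 8.24 in intron 10 and a second of 5.50. The peak of 8.24 reached within 1000 bp of a TSS, although its summit did not. PRC1, a protein of the central spindle, had 5.84 and 2.84, and PLK1, a mitotic kinase, 5.22 and 3.18. Their promoter peaks were far stronger, at 27.5 for CDC20, 23.4 for PRC1 and 29.6 for PLK1. Among the G1/S genes E2F1, the transcription factor of S phase entry, had 2 peaks in intron 1, at 7.53 and 5.15, near the level of its promoter peak (7.88). PCNA, the sliding clamp of replication, had 5.87 and 2.45, and RRM2, a ribonucleotide reductase subunit, 5.80 and 4.06.

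The complexes to which MYBL2 belongs have few genes, and their share has a wide interval. Of 17 genes of the MYB family, DREAM and MuvB, 7 had a downstream peak (41.2%, interval 18.4 to 67.1%). All 17 had a promoter peak, and the interval held the 22.4% of all genes with such a peak. None of the 17 (0 genes) had an upstream peak, against 8% of all genes and 1255 of the 11185 genes with a promoter peak. With 17 genes this count is too small to set apart from those shares, and it was not tested. RBBP4, a histone-binding MuvB subunit, led with 7.45, 4.22 and 2.72, followed by TFDP1, the E2F partner (4.27), and DYRK1A, the kinase that promotes DREAM assembly (4.13, 3.06 and 2.52). MYBL2 itself had 1 peak in intron 1 (chromosome 20, 42299218 to 42299530), 3619 bp from its 5′ end. Its pileup was 18 fragments and its fold enrichment 3.94, against 10.8 at its promoter.

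Of the 13 genes that the study names in its text, 6 had a downstream peak (46.2%, interval 19.2 to 74.9%). All 13 had a promoter peak, and the interval held the 22.4% of genes with one. HJURP, the chaperone of centromeric histone, had 4, at 4.44, 3.35, 3.18 and 2.26. MKI67, the proliferation antigen Ki-67, had 4.24 and 3.53. PIF1, a helicase gene, had 4.49 in coding exon 2, BIRC5 (survivin) 4.02 in intron 3 and RAD54L, a recombination gene, 3.20. In none of the 6 did the fold enrichment reach 5. CCNF, AURKB, KIF20A, EXO1, C1orf112, ESPL1 and CDK2 had no downstream peak.

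Genes that changed after MYBL2 knockdown in the study had shares whose intervals held the 14.6% of all genes. The study chose these genes by their mean change over A673, SK-N-MC and RDES cells, while the peaks are of A673 cells alone. Among all genes with a promoter peak the share was 22.4%. Of 29 that fell and could be placed, 8 had a downstream peak (27.6%, interval 12.7 to 47.2%), or 33.3% of the 24 with a promoter peak. These 8 included MYBL2, the target of the knockdown itself. Of 40 that rose, 3 did (7.50%, interval 1.57 to 20.4%), or 10.3% of the 29 with a promoter peak. The intervals overlapped each other and the shares were not tested against each other. The leading genes were NCKAP1 (4.75), PIF1 and MKI67 among those that fell, and NEK7 (10.9), PDCD4 (3.31) and UQCC6 (2.82) among those that rose.

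Some groups with other roles were also above the 22.4% of genes with a promoter peak. Downstream peaks were found at 25 of 49 chromatin regulator genes (51.0%, interval 36.3 to 65.6%, led by ARID1A at 6.59), 18 of 38 genes of the actin cytoskeleton and of YAP/TEAD (47.4%, interval 31.0 to 64.2%, led by NUAK2 at 6.67) and 16 of 34 genes activated by EWSR1-FLI1 (47.1%, interval 29.8 to 64.9%). PPP1R1A led the last group, with a narrow peak of 13.9 in intron 1 against 3.88 at the promoter. The interval of that peak reached within 1000 bp of a TSS, although its summit did not. BCL11B (7.82 and 7.19) and FCGRT (6.07 and 4.40) followed. Of 32 genes repressed by the fusion 11 had one (34.4%, interval 18.6 to 53.2%), led by FN1, the fibronectin gene, at 8.88. That interval holds 22.4%, which is a share of genes with a promoter peak only. Of the 26 with such a peak 11 had a downstream peak (42.3%), a share that was not tested. Among AP-1 and immediate early genes 7 of 30 had one (23.3%, interval 9.93 to 42.3%), or 28% of the 25 with a promoter peak. MAFG led with 5.55, in a peak that reached within 1000 bp of a TSS. An upstream peak was held by 8 of the 30 genes, against 8% of all genes. High shares were therefore not limited to cell cycle genes in these lists.

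Ribosomal protein genes were the group with the strongest peaks. A downstream peak was found at 16 of 46 (34.8%, interval 21.4 to 50.2%), 10 of them with a fold enrichment of at least 5, and the median of the strongest was 5.32. RPL10 led with 13.1 in its 3′ UTR, in a peak that reached within 1000 bp of a TSS. RPL28 (6.74, 6.07, 4.43 and 3.31) and RPL27 (6.51, 5.92, 4.72 and 4.04) followed. These genes are short and have many processed copies elsewhere in the genome. The authors removed reads of low mapping quality, which many reads from such copies have, and the part of the copies in these values was not tested, so the values are uncertain. All 46 genes had a promoter peak, and the interval of their share held the 22.4% of all genes with one. Liver genes, many of which are silent in other cells, formed the lower end with 2 of 49 (4.08%, interval 0.498 to 14.0%), ASS1 at 3.17 and AHSG at 2.66. Only 4 of the 49 had a promoter peak. Among all genes without a promoter peak the share was 2.84%, which the interval held, so the liver share was near that background.

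**Figure D4:**
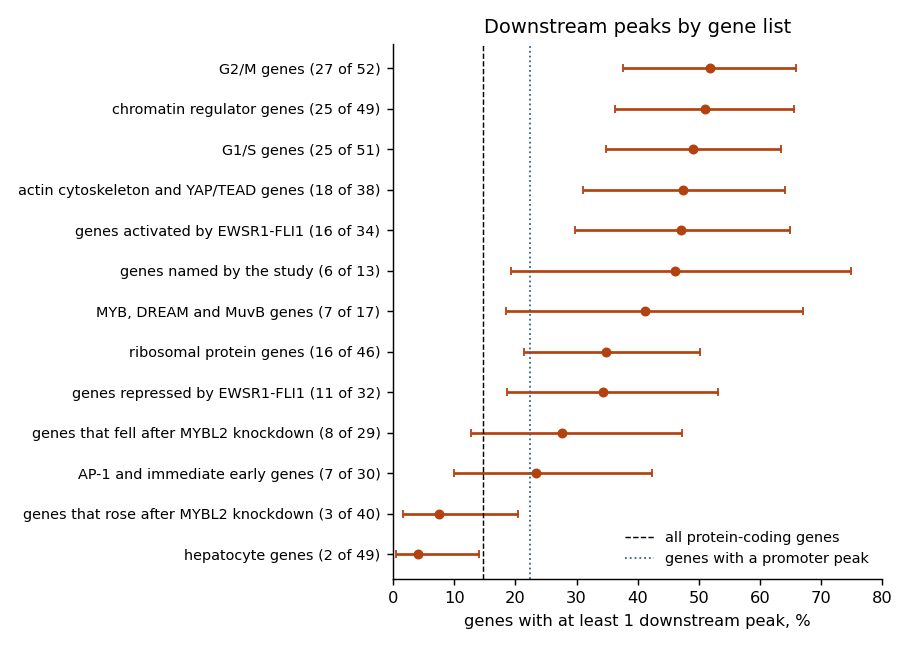
Share of genes with at least 1 downstream peak (x axis, %) for 13 gene lists, with the counts beside each name. Points are shares, bars exact 95% intervals, the dashed line marks all protein-coding genes with an allowed window (14.6%) and the dotted line those with a promoter peak (22.4%). G2/M genes are highest at 51.9% and hepatocyte genes lowest at 4.08%.

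To see what the summits share in sequence, 12 motifs were counted on both strands in the 101 bp around each summit and in a window of the same size 500 bp further from the 5′ end. For MYB they were TAACGG or TAACTG or CAACGG or CAACTG, and for CHR either TTTGAA or TTCGAA. The CCAAT box was searched as such, and E2F as TTCCCGC or TTGGCGC or TTCGCGC or TTGCCGC. The ETS word was CCGGAA and the AP-1 word TGAGTCA or TGACTCA. The word for CTCF was CNAGGNGGC, and SP/KLF was searched as GGGCGG, NRF1 as GCGCATGCG, the E-box as CACGTG, TEAD as CATTCC, and the fusion's repeat as GGAA in 3 direct copies. Words of different motifs may overlap. Summit and flank windows were not matched for base composition. Their median GC content was 41.6% and 44.6% for downstream peaks, and 46.5% and 47.5% for upstream-only peaks. The part of this difference in the motif results was not tested. P-values are from two-sided exact McNemar tests with Benjamini-Hochberg adjustment over 24 tests, 12 for downstream peaks and 12 for the 1661 upstream-only peaks.

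Of the 12 motifs, 2 differed between downstream summits and their flanks. CCAAT, the word bound by NF-Y, was present at 600 of 4146 summits (14.5%, interval 13.4 to 15.6%) and 486 flanks (11.7%), a ratio of 1.23 (adjusted exact McNemar p = 0.0046). The ETS word was at 65 summits (1.57%) and 33 flanks (0.796%), a ratio of 1.97 (adjusted exact McNemar p = 0.0192). With flanks 500 bp toward the 5′ end the ETS ratio was 1.38 (adjusted exact McNemar p = 0.333), so that call depended on the side of the flank. The ETS word was not particular to downstream peaks. At upstream-only peaks it was at 38 summits and 18 flanks, a ratio of 2.11 (adjusted exact McNemar p = 0.0574). In windows of 100 bp to either side its ratio was 2.54 upstream (adjusted exact McNemar p = 0.000225) and 1.53 downstream (adjusted exact McNemar p = 0.0170).

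The motif of the factor itself was hardly more common at summits. A MYB word was present at 440 summits (10.6%, interval 9.69 to 11.6%) and 401 flanks (9.67%), a ratio of 1.10 (adjusted exact McNemar p = 0.312). A CHR was at 465 summits (11.2%) and 418 flanks (10.1%), a ratio of 1.11 (adjusted exact McNemar p = 0.255). In windows of 100 bp to either side both passed the test, MYB at a ratio of 1.17 (adjusted exact McNemar p = 0.00657) and CHR at 1.14 (adjusted exact McNemar p = 0.0141), and 7 motifs did in all, CTCF with fewer summits than flanks (ratio 0.731). The words were common away from peaks as well. At a fixed point 3000 bp inside 14535 genes where that base was allowed, a 101-bp window held a MYB word in 9.13%, a CHR in 9.87%, CCAAT in 13.1% and the ETS word in 0.874%.

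The AP-1 word had a ratio of 1.60 (77 against 48, adjusted exact McNemar p = 0.0574) downstream and 2.18 (37 against 17, adjusted exact McNemar p = 0.0528) upstream, and neither passed. That call depended on the setting. With flanks toward the 5′ end the downstream ratio was 1.83 (adjusted exact McNemar p = 0.0125), and in windows of 100 bp to either side it was 1.40 downstream (adjusted exact McNemar p = 0.0211) and 1.78 upstream (adjusted exact McNemar p = 0.0141). The SP/KLF word also depended on the side of the flank. It was at 115 summits and 143 outer flanks, a ratio of 0.804 (adjusted exact McNemar p = 0.247), but at 225 flanks toward the 5′ end, a ratio of 0.511 (adjusted exact McNemar p = 1.24e-08). The GGAA repeat, to which EWSR1-FLI1 binds, was at 3 downstream summits and 1 flank. The NRF1 word was at 0 of 4146 summits, which allows a share of up to 0.0889%. Motifs typical of CpG-rich promoters separated the downstream summits from promoter summits. SP/KLF was at 2.77% of downstream and 19.7% of promoter summits, ETS at 1.57% and 7.97%, and E2F at 1.11% and 5.52%. MYB words were at 10.6% and 9.22%.

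**Figure D5:**
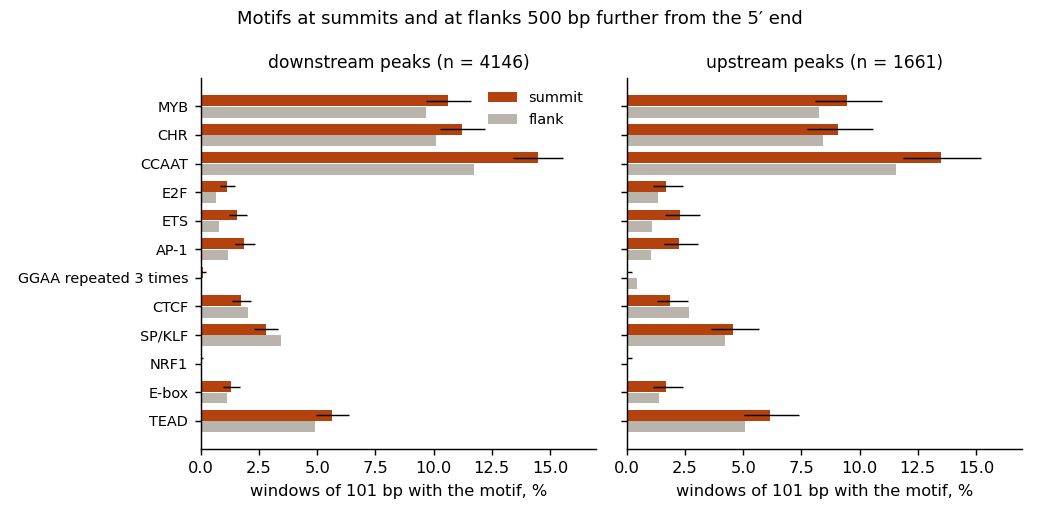
Share of 101-bp windows that hold each of 12 motifs (x axis, %) at summits and at flanks 500 bp further from the 5′ end, for 4146 downstream and 1661 upstream-only peaks. Bars are shares and lines exact 95% intervals of the summit shares. CCAAT stands at 14.5% of downstream summits and 11.7% of their flanks, and MYB words at 10.6% and 9.67%.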

How the data were processed

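Chromatin of A673 cells was precipitated, sequenced on a HiSeq2500 and, per the submitters' processing notes, processed by the authors with Bowtie2 2.1.10 and MACS2 2.0.10 on hg19, with the input as control. Per the methods of the study, reads of low mapping quality were removed before peaks were called. What their cleaning step removed is not given in the sources used here. Per the deposited peak list, the columns used hold a score, the fold enrichment (a linear ratio) and the −log10 p and −log10 q of the authors. Depth was judged by the pileup, solved from fold enrichment and p (largest misfit 3.49e-05 in −log10 p).

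Positions count from 1. Genes were the 19478 canonical coding transcripts of GENCODE 44 lifted to GRCh37, which shares the hg19 coordinates, on 23 chromosomes, with 193385 TSSs of protein-coding and lncRNA genes to be avoided. Assembly gaps were left out. A promoter peak of a gene had its summit within 1000 bp of any of its TSSs.

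Intervals are exact at 95% (Clopper-Pearson, Poisson, or conditional for ratios of rates; scipy 1.17.1). The scripts were tested on simulated peaks. Named genes were the 10 strongest downstream peaks, the 5 genes with the most, the 5 strongest without a promoter peak, the 3 leading genes of each list and those named by the study, of which 1 gene is not reported here. The rule, the lists (2 taken from the knockdown data of the study, the rest from general knowledge) and the tests were chosen with earlier results of these data known. No peak list of the input library was used.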

Additional observations from a re-analysis of the deposited data

How the results depend on the processing

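The downstream to upstream ratio of peak density stayed above 1 and past the McNemar test in all 8 alternatives, between 2.03 (fold enrichment of at least 5) and 3.71 (upstream bases outside gene bodies). The comparison of strength passed the test in none of its 10 alternatives. It had the downstream peak higher in 48.0% of untied genes and, at a fold enrichment of at least 5, in 23.1% (3 against 10 genes, exact sign test, p = 0.0923). The direction turned with all allowed bases of either side (51.1%), over 2000 bp from every TSS (53.6%) and in genes with 1 peak in either window (54.4%, added after the data were seen). The cause was not tested.

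The number of downstream peaks was 1644 at −log10 q of at least 5, 451 at a fold enrichment of at least 5 and 2287 over 2000 bp from every TSS, where fewer peaks or bases enter by construction. The share of their genes with a promoter peak was 87.4% and 75.9% at the −log10 q and the fold enrichment threshold, which were applied to promoter peaks too and lowered the share of all genes to 56.7% and 49.9%. With promoter peaks of any strength, 356 of the 415 genes with a downstream peak of fold enrichment 5 or more had one. With promoter peaks counted by interval (added afterwards) the share was 94.0%. In that count a downstream peak that reached a TSS window of its own gene was itself the promoter peak. Merging within 100 bp joined 0 peaks, so this setting, counted above among the alternatives for density and strength, only repeated the main values. Motifs past the test numbered 7 in windows of 100 bp either side, 3 against flanks toward the 5′ end (CCAAT, AP-1 and SP/KLF) and 0 at a fold enrichment of at least 5, where 451 peaks entered. Against flanks toward the 5′ end the E2F ratio turned to 0.979, and at a fold enrichment of at least 5 the E-box ratio to 0.833 and the TEAD ratio to 0.913.

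No paired analysis was possible because the ChIP and the input are single libraries. No library was left out for the same reason, and depth limits the reading of single weak peaks.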
